A study of Mus musculus with 4 samples.

Results

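In the liver of a wild-type (WT) mouse, 4239 of the 26227 islands of histone H4 lysine 16 acetylation (H4K16ac) lay more than 10000 bp, edge to edge, from every island of a Sirt1-deficient (MT) mouse. They are called remote islands here, and they make up 16.2% of the WT list (95% Wilson interval, 15.7 to 16.6%). They were chosen by their measured positions in both lists, so all of their values are given as a description, with no test. An island is a stretch of the genome in which reads from chromatin immunoprecipitation (ChIP) with an antibody to H4K16ac exceed the reads of an input library made from the same chromatin without antibody. Of the other 21988 WT islands, 16863 overlapped an MT island and 5125 lay within 10000 bp of one without overlapping it, and these are called overlapping and near islands. Of the near islands, 55 touched an MT island.

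Acetylation of lysine 16 removes a positive charge from the tail of histone H4 and loosens the packing of nucleosomes, and the mark is found across open and transcribed chromatin. SIRT1 is a deacetylase that depends on NAD+ and has this lysine among its substrates, which ties the mark to the metabolic state of the cell. The study asked whether loss of Sirt1 changed H4K16ac in liver, a tissue whose metabolism SIRT1 helps to control, and the remote islands are the places where the list of the WT mouse had the mark and the list of the MT mouse had nothing nearby.

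Whole liver was taken in the morning from 3-month-old mice of a mixed 129/FVB/Black Swiss background, 1 WT and 1 MT, both male. The study describes more mice for ChIP-Seq than this pair, and the others were not analysed here. The MT mouse, labelled SIRT1 KO, carried a targeted deletion in both copies of Sirt1 in all tissues, and because most such embryos die, it is one of the survivors. Each mouse gave 1 ChIP library, made with the antibody sc-8662-R from Santa Cruz, and 1 input library, so no replicate stands behind a difference between genotypes, and no such difference was tested. Whole liver holds hepatocytes and other cell types, and more cells with the mark cannot be told apart from more mark per cell. The lists are on mouse build mm8, and no annotation of that build was used here, so that islands are named by position, no gene is assigned, and the liver label was not checked against marker genes. Because a list holds islands that passed a threshold, the MT reads under the remote islands are not known, and an island that is missing from the MT list is not evidence that the mark was missing there.

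The remote islands held 234260 of the 2264125 ChIP reads counted in WT islands (10.3%) and 110523 of the 984817 input reads (11.2%), and they covered 8.41 Mb, or 12.1% of the length of all WT islands. They thus took a smaller share of the length than of the islands, and a smaller share of the ChIP reads than of the length. Pooled over islands, there were 27.9 ChIP reads per kb in remote islands, 28.0 in near islands and 34.1 in overlapping islands. The pooled input was 13.1, 13.2 and 14.5 reads per kb in the same order. There were 2.12 ChIP reads per input read in remote islands, 2.12 in near islands and 2.36 in overlapping islands. On all 3 measures the remote islands lay next to the near islands and below the overlapping ones. These are raw read ratios, not scaled for the depth of the ChIP and input libraries, and all intervals cover counting error only.

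Remote islands were short. Their median length was 1800 bp (quartiles 1200 and 2400 bp), against 1800 bp in near islands and 2400 bp in overlapping islands, and they ranged from 200 to 11800 bp. Only 28.8% of them were longer than the median of the other WT islands, which was 2200 bp. Islands of at least 5000 bp made up 102 of the 4239 remote islands (2.41%), 2.52% of the near islands and 13.8% of the overlapping islands, where the share in the whole WT list was 9.75%. The longest island of the WT list reached 75000 bp, and 130 of the other WT islands were longer than the longest remote island.

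They also held few reads. The median remote island had 48 ChIP reads (quartiles 38 and 63, range 17 to 317) and 21 input reads (quartiles 15 and 31, range 2 to 214). Near islands had medians of 50 and 22 reads, and overlapping islands of 78 and 32 reads. Of the remote islands, 19.3% had more ChIP reads than the median of the other WT islands, which was 69, and 27.3% had more input reads than the median of 29. At least 100 ChIP reads were found in 273 remote islands (6.44%), in 7.63% of near islands and in 35.2% of overlapping islands, against 25.2% of the whole WT list. The highest count among the remote islands, 317 ChIP reads, was exceeded by 443 of the other WT islands. The distributions of remote and near islands ran almost on top of each other in length, ChIP reads and ChIP reads per input read.

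**Figure D1:**
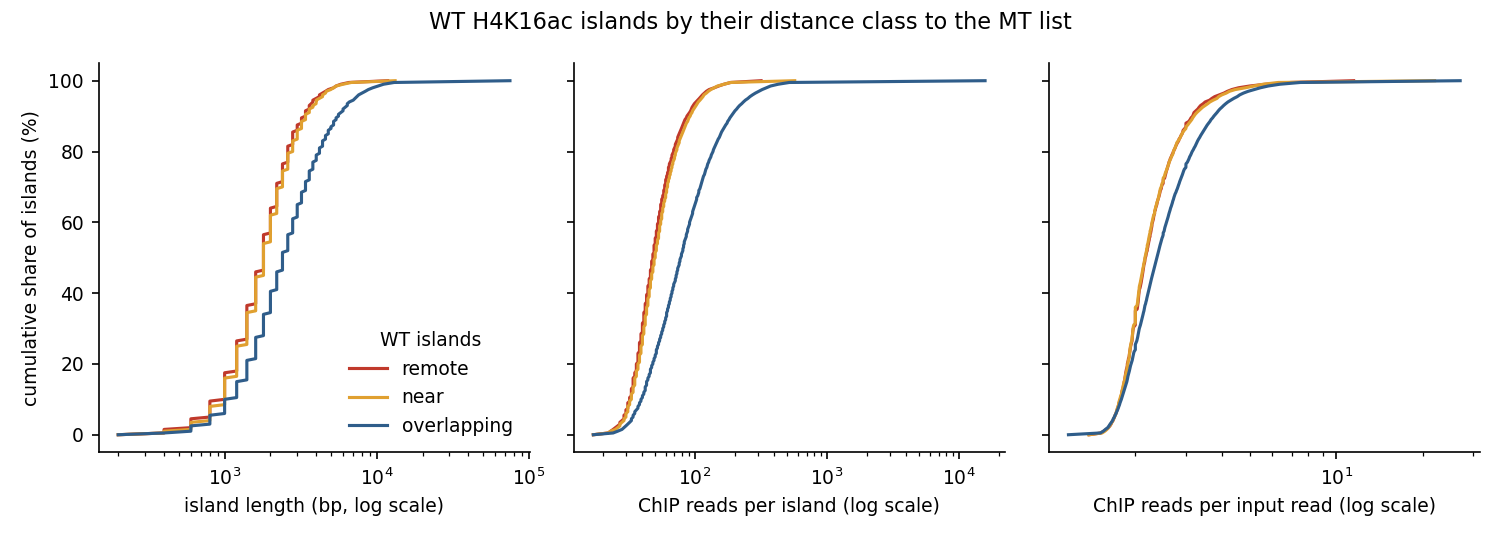
Cumulative share of WT islands (%) against island length in bp, ChIP reads per island and ChIP reads per input read, each on a log axis, for 4239 remote, 5125 near and 16863 overlapping islands. The remote and near curves nearly coincide, with medians of 48 and 50 ChIP reads, and both lie to the left of the overlapping curve, whose median is 78.

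ChIP read density was also lower in remote islands than in overlapping ones. The median density was 28.2 ChIP reads per kb in remote islands, 28.3 in near and 32.9 in overlapping islands. Of the remote islands, 28.9% lay above the median density of the other WT islands. The median was 2.17 ChIP reads per input read in remote islands (quartiles 1.93 and 2.58), 2.16 in near islands and 2.38 in overlapping islands, and 38.4% of the remote islands lay above the median of the others. The median input density was 12.9 reads per kb in remote islands, 13.1 in near and 13.9 in overlapping islands, and 39.0% of the remote islands lay above the median of the others. A ratio of at least 4 ChIP reads per input read was reached by 163 remote islands (3.85%, 3.31 to 4.47%), by 4.25% of near islands and by 7.71% of overlapping islands, and 6.41% of the whole WT list reached it.

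Density and ratio both change with length, so the classes were also compared within bins of length. Among islands of 1000 to under 2000 bp, which hold 1982 (46.8%) of the remote islands, the median density was 29.4 ChIP reads per kb in remote, 30 in near and 34.2 in overlapping islands. Among islands of 2000 to under 3000 bp, with 1235 remote islands, it was 25.4, 25.9 and 31.1. The step between overlapping islands and the rest was thus present at equal length. The 37 remote islands of at least 6000 bp had a median of 27.5 ChIP reads per kb, near islands of that length 26.3 and overlapping islands 34.0. Over the length bins, the median ratio of the remote islands fell from 2.70 ChIP reads per input read below 1000 bp to 1.66 at 6000 bp and above, while that of overlapping islands went from 3.14 to 2.27. The long remote islands were therefore those with the lowest ratios. Their median input was 16.1 reads per kb, against 12.3 in remote islands of 2000 to under 3000 bp. Below 1000 bp, where the median ratio was highest, it was 16.25, so a high input density was not particular to the long islands.

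**Figure D2:**
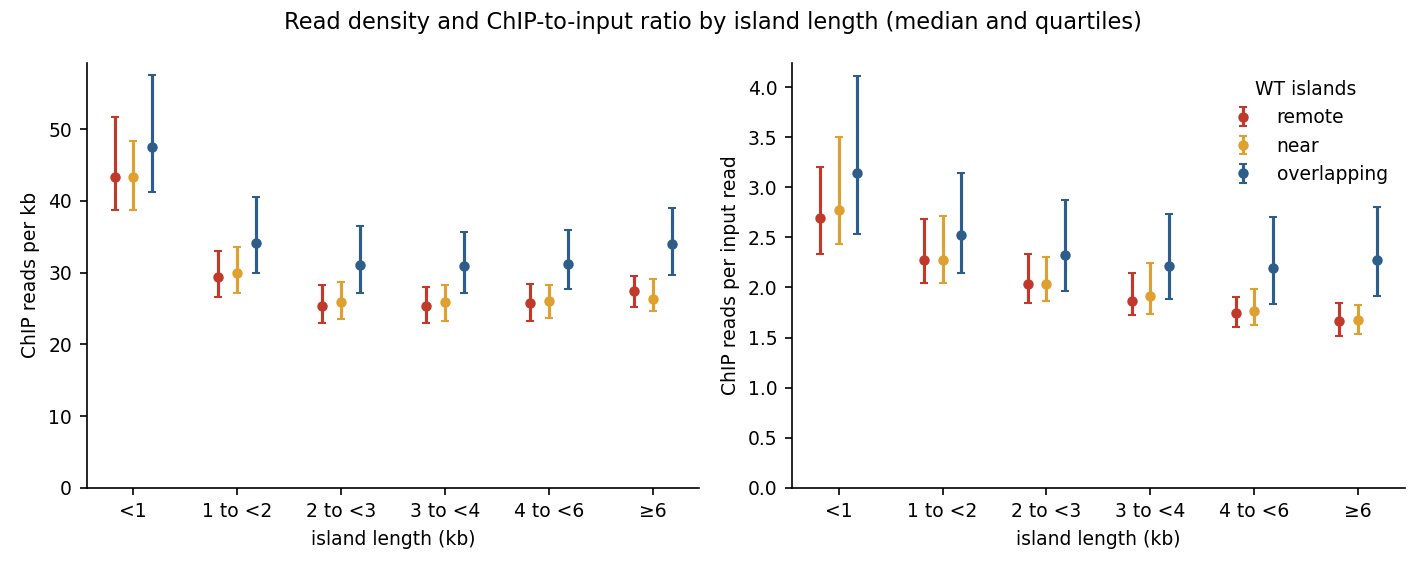
ChIP reads per kb and ChIP reads per input read (medians as points, quartiles as bars, axes from 0) by island length in kb for remote, near and overlapping WT islands. In every length bin the medians of the overlapping islands are highest, and in remote islands the median ratio goes from 2.70 in the shortest bin to 1.66 in the longest.

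Many remote islands stood close to the lowest counts that the WT list admitted. For each input count held by at least 20 WT islands, the lowest ChIP count in the list was taken as a floor. Within 5 ChIP reads of this floor were 2025 of 4216 remote islands (48.0%), 44.1% of near islands and 18.8% of overlapping islands, against 28.7% of the whole WT list. The median remote island had 6 ChIP reads above the floor, against 7 in near and 18 in overlapping islands. The classes were not matched on length or reads here, and overlapping islands were longer and held more reads. Set against the MT list, 4220 remote islands (99.6%) had at least the lowest ChIP count of MT islands with as many input reads, as had 99.6% of the other WT islands. Since every island had passed the threshold of its own list, this share is near its upper limit in both classes and does not set the remote islands apart. These counts were not scaled between the mice, and the share was 99.7% with the WT counts scaled to the MT input.

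The distance of a remote island to the nearest MT island was 27600 bp at the median (quartiles 16400 and 59000 bp). The limit of 10000 bp did not fall at a step in the counts. The 249 WT islands from 9200 to 10000 bp away had medians of 1800 bp, 49 ChIP reads, 21 input reads and 2.19 ChIP reads per input read, and the 203 remote islands within 11000 bp had medians of 1800 bp, 50 ChIP reads, 24 input reads and 2.17 ChIP reads per input read. Up to 20000 bp lay 1481 remote islands (34.9%), and from there to 50000 bp lay 1520 (35.9%). The 282 remote islands over 200000 bp away had a median length of 1600 bp, 46 ChIP reads, 28.6 ChIP reads per kb and 2.29 ChIP reads per input read. The median density in the bins of distance ranged from 27.9 to 28.6 ChIP reads per kb, so that density varied little with distance. At over 1 Mb from any MT island lay 22 remote islands.

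Remote islands had fewer neighbours than other WT islands. The nearest other WT island was 18800 bp away at the median, against 3400 bp for the other WT islands. Another WT island lay within 50 kb of 77.5% of remote islands and of 93.8% of the others, and within 10 kb of 31.9% and 72.1%. Within 500 kb on either side, the median remote island had 17 other WT islands and 17 MT islands, and the median of the other WT islands had 22 and 25. The surroundings were thus not empty of MT islands, and 78 remote islands (1.84%) had no MT island in that range. The rule itself keeps MT islands away, and 64.3% of all WT islands overlap one.

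Remote islands often had other remote islands nearby, which the rule favours, since WT islands in the same stretch without MT islands are remote together. Another remote island lay within 50 kb of 1997 of them (47.1%, 45.6 to 48.6%) and within 10 kb of 26.3%, and for 48.5% the nearest other WT island was also remote. When remote islands that followed each other with no other island of either list between them were joined, they formed 2729 runs. Of the remote islands, 1801 (42.5%) stood alone and 2438 (57.5%) were in runs of at least 2. There were 57 runs of 5 or more, with 367 islands on 17 chromosomes and a median span of 141.8 kb. Islands in runs differed little in size from those that stood alone. The median was 47 ChIP reads for islands that stood alone, 48 in runs of 2 to 4 and 50 in runs of 5 or more, with 1800 bp in each case and 2.17, 2.17 and 2.16 ChIP reads per input read. The median distance to the nearest MT island was 21.2, 31.8 and 63.8 kb in the same order, an order that the definition of a run favours, since no MT island may lie inside one.

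**Figure D3:**
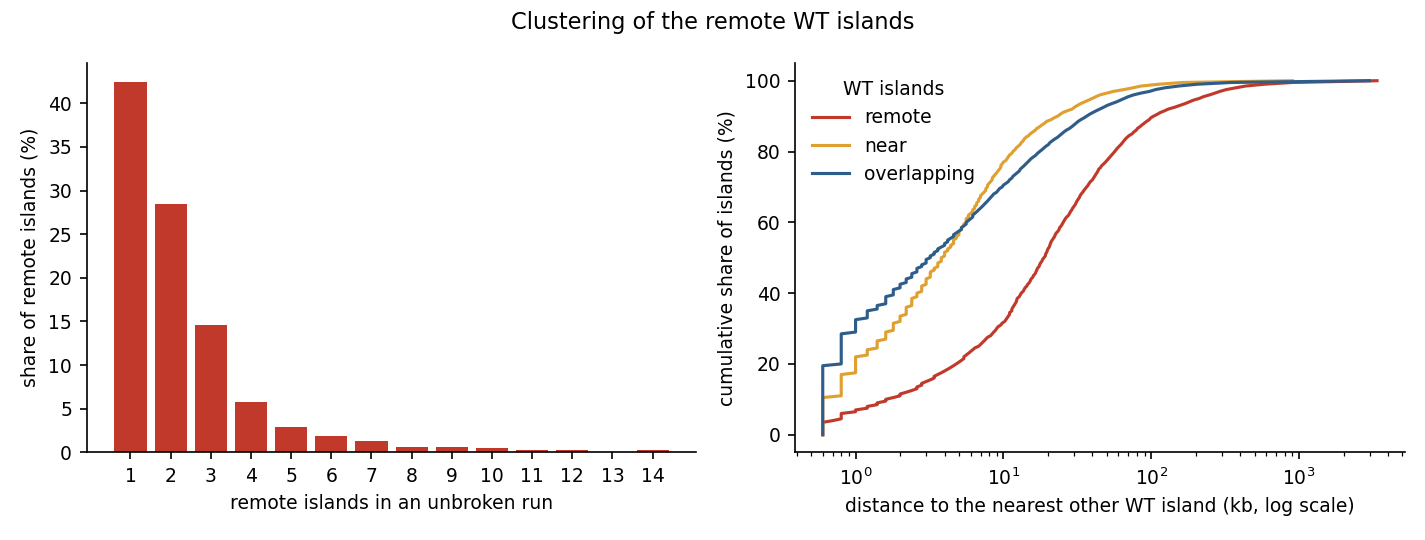
Left, share of the 4239 remote islands (%) by the number of remote islands in their unbroken run. Right, cumulative share of WT islands (%) against the distance to the nearest other WT island (kb, log axis), where the remote islands, with a median of 18800 bp, lie to the right of near and overlapping islands.

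The run with the most islands held 14 remote islands in 484.8 kb at chr10:7725401-8210200. Together they had 870 ChIP reads and 370 input reads, or 2.35 ChIP reads per input read, and they covered 5.61% of the span. Its largest member, at chr10:7779401-7783800, held 156 ChIP and 43 input reads, and the smallest count was 24 ChIP reads. The next MT islands lay 33.2 kb before and 260.4 kb after this run. The run of 12 islands at chr2:112314801-113511200 was spread over 1196.4 kb, with 631 ChIP and 295 input reads. Chromosome 12 held the other 3 of the 5 largest runs, which were chr12:118079001-118329000 with 11 islands and 675 ChIP reads, chr12:77871401-78134600 with 10 islands and 908 ChIP reads, and chr12:58551201-59133800 with 10 islands and 449 ChIP reads. The ratio in these runs was 1.97, 1.76 and 2.41 ChIP reads per input read in that order. The run with the most reads was thus the one with the lowest ratio, and its input of 16.4 reads per kb was the highest of the 5.

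Among the 5 runs with the most ChIP reads, the one with the largest share of its span covered was on chromosome 15, where 4 remote islands followed each other at distances of 600 bp in chr15:67238401-67264200. They covered 93.0% of 25.8 kb. The island at chr15:67241401-67252600 held 309 ChIP reads (exact 95% Poisson interval, 276 to 345) and 127 input reads (106 to 151), and the one at chr15:67253201-67261000 held 239 ChIP reads (210 to 271) and 91 input reads (73.3 to 112). The islands at either end, chr15:67238401-67240800 and chr15:67261601-67264200, held 58 and 68 ChIP reads with 33 and 40 input reads. The block had 674 ChIP and 291 input reads, or 2.32 ChIP reads per input read. The 2 counts in the middle were well above the lowest counts of islands with similar input. Within 5 input reads of the first, the lowest ChIP count was 176 in the WT list and 171 in the MT list. Within 5 input reads of the second, it was 128 in the WT list and 124 among 817 MT islands. The nearest MT islands were 229.8 kb before and 658.6 kb after the block, and the one before it, chr15:66999601-67008600, held 422 ChIP and 183 input reads.

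**Figure D4:**
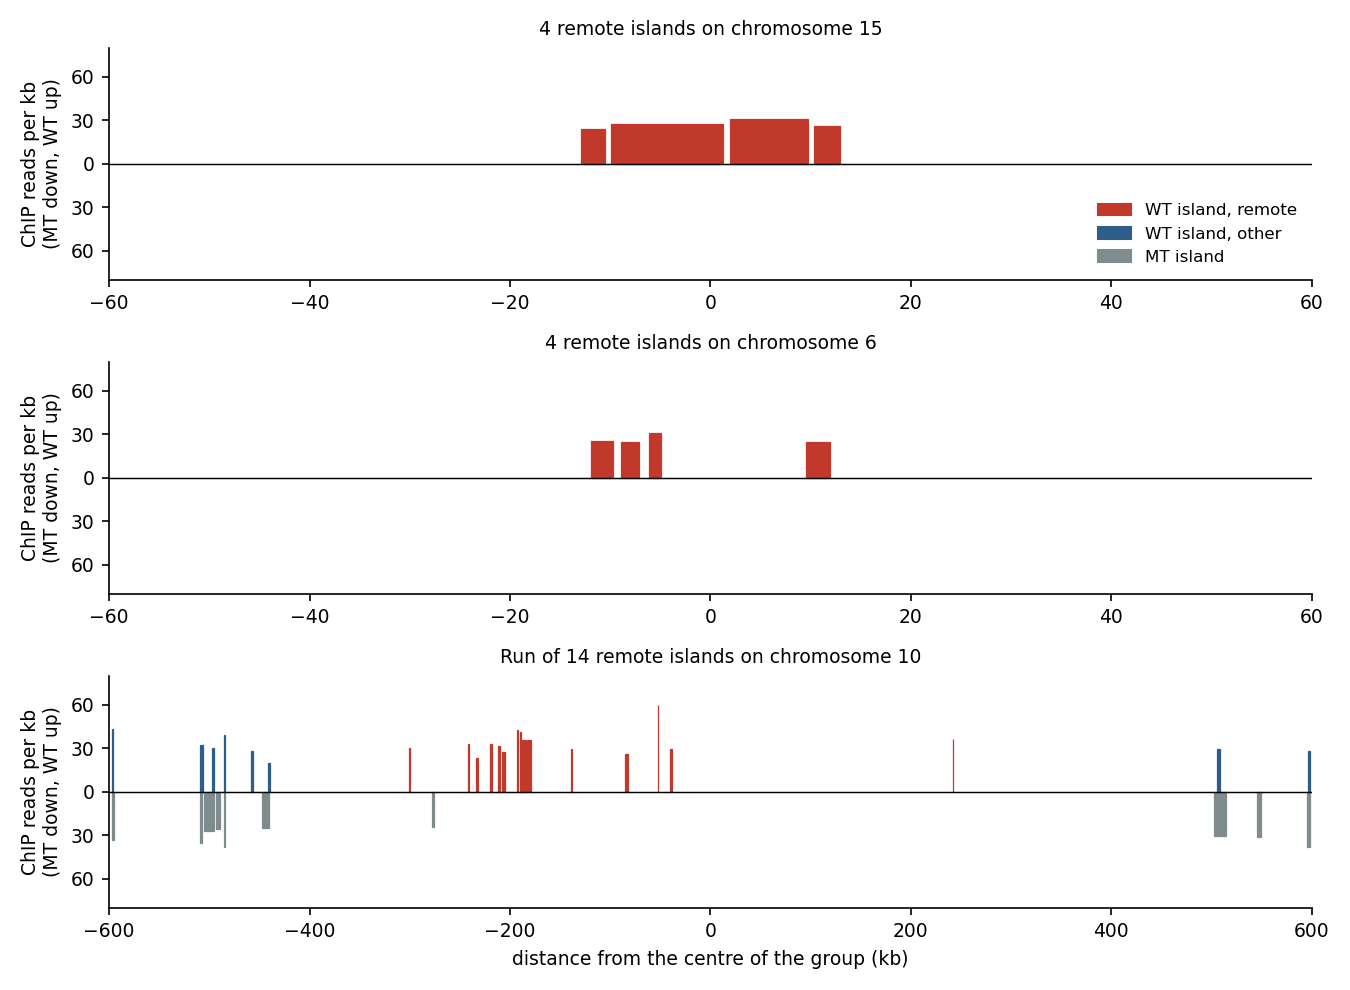
ChIP reads per kb of WT islands (upward) and MT islands (downward) against distance in kb from the centre of 3 groups of remote islands, namely the block on chromosome 15, the group of 4 islands on chromosome 6 that lie 3.82 to 3.84 Mb from an MT island and the run of 14 on chromosome 10. Within 60 kb of the first 2 centres, neither list has an island other than the 4 remote WT islands, and MT islands flank the run on chromosome 10 at 33.2 and 260.4 kb.

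The 10 remote islands with the most ChIP reads had 1.39 to 2.97 ChIP reads per input read, and 5 of them had fewer than 2. The highest count was at chr5:80491201-80498800, with 317 ChIP reads (283 to 354) and 214 input reads (186 to 245), 2.07 Mb from the nearest MT island. Its input of 28.2 reads per kb was the highest of the 10, and its ratio was 1.48. At chr2:38392601-38404400, the longest remote island, there were 284 ChIP and 205 input reads, a ratio of 1.39. At chr12:25176201-25187200 there were 316 ChIP and 184 input reads, a ratio of 1.72, and at chr9:20677001-20684800 there were 213 and 144, a ratio of 1.48. These large counts thus came with large inputs. The 5 islands with the most input reads included these 4. The remaining 1, chr2:37641601-37649200, had 209 ChIP and 140 input reads.

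A high count with a low input was found at chr10:121784001-121791800, where 223 ChIP reads (195 to 254) stood against 75 input reads (59.0 to 94.0), the highest ratio of the 10 at 2.97. The lowest ChIP count among the 1212 MT islands within 5 input reads was 104, and the nearest MT island was 63.6 kb away with 94 ChIP reads. At chr8:36881601-36888600 there were 215 ChIP and 85 input reads, a ratio of 2.53. At chr3:10108001-10116400 there were 266 and 124, a ratio of 2.15, and at chr5:140535201-140542200 there were 216 and 129, a ratio of 1.67. The 5 remote islands named as the longest were all among the 10 with the most ChIP reads. The last of these 5 was tied with other remote islands at 7800 bp.

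The densest remote islands were small. Among those with at least 50 ChIP reads, the highest density was 110 ChIP reads per kb at chr3:146028201-146028800, where 66 ChIP reads (51.0 to 84.0) stood against 10 input reads (4.80 to 18.4) in 600 bp, 96.8 kb from the nearest MT island. The next were chr10:17923801-17924600 with 56 ChIP and 13 input reads, chr10:118124601-118125600 with 62 and 18, chr13:74928401-74929400 with 57 and 16, and chr4:154214601-154216400 with 100 and 30. Their ratios were 4.31, 3.44, 3.56 and 3.33 ChIP reads per input read. Each of these 5 had at least 24 ChIP reads more than the lowest WT count at its input.

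The islands farthest from the MT list held 30 to 59 ChIP reads. The farthest, chrX:90465201-90465600, held 31 ChIP reads (21.1 to 44.0) and 4 input reads (1.09 to 10.2) and lay 4.67 Mb from the nearest MT island. Its ratio of 7.75 ChIP reads per input read and its density of 77.5 ChIP reads per kb were above the 95th percentiles of the remote islands, 3.69 and 45.0, but the ratio rests on 4 input reads. On chromosome 6, chr6:77688401-77689800 had 30 ChIP and 13 input reads at 4.23 Mb. A group of 4 islands between 77004401 and 77028200 on chr6 lay 3.82 to 3.84 Mb from an MT island, with 56, 45, 37 and 59 ChIP reads and 26, 21, 16 and 19 input reads. The last of these, chr6:77025801-77028200, had 3.11 ChIP reads per input read, the others 2.14 to 2.31.

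Remote islands were found on all 19 autosomes and on chromosome X. On the autosomes, 4204 of 26101 WT islands were remote (16.1%, 15.7 to 16.6%). The share was lowest on chromosome 16, with 127 of 1117 (11.4%, 9.64 to 13.4%), and highest on chromosome 3, with 274 of 1407 (19.5%, 17.5 to 21.6%). The intervals of these chromosomes did not overlap, but with 1 mouse per genotype they hold counting error alone. They also treat islands as independent, although many remote islands lay in runs, and the pair was picked as the extremes of 19 autosomes. Chromosomes 12, 10 and 2 followed chromosome 3 with 19.0%, 18.9% and 18.8%, and chromosomes 17 and 11 stood next to chromosome 16 with 12.2% and 12.9%. The 5 autosomes with the fewest WT islands per Mb had 17.6% remote islands, and the 5 with the most had 14.2%, while chromosome 10, one of the latter, had 18.9%. Median ChIP density of the remote islands ranged from 27.2 to 29.5 reads per kb over the autosomes, and median length from 1600 to 1800 bp.

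Chromosome X had 126 WT islands, of which 35 were remote (27.8%, 20.7 to 36.2%), above the interval of the autosomes. They were few, 0.222 per Mb against 1.34 to 2.24 on the autosomes, and made up 0.826% of all remote islands. All WT islands were sparse there as well, with 0.798 per Mb against 8.99 to 15.1 on the autosomes, and the MT list had 142 islands on X. The remote islands on X had medians of 47 ChIP and 20 input reads and of 13.0 input reads per kb, close to those of the autosomes. Their median distance to an MT island was 81.4 kb. The rule applied the other way, to MT islands with no WT island within 10000 bp, took 5347 of 28377 MT islands (18.8%, 18.4 to 19.3%). This share was higher than the share of remote WT islands on 18 of 19 autosomes, the exception being chromosome 12 with 19.0% in WT and 17.6% in MT, and on chromosome X it was 34.5%. The order of the genotypes turned when both lists were cut at 2 or more ChIP reads per input read. Of the WT islands left, 28.2% were remote, and of the MT islands left 24.0%. The cut was on raw ratios and left 19307 of 26227 WT and 17387 of 28377 MT islands, so it thinned the MT list more. With the limit at 50000 bp, the shares were 4.72% (4.47 to 4.98%) in WT and 4.62% (4.39 to 4.87%) in MT. These intervals overlap, so no order is read from them.

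**Figure D5:**
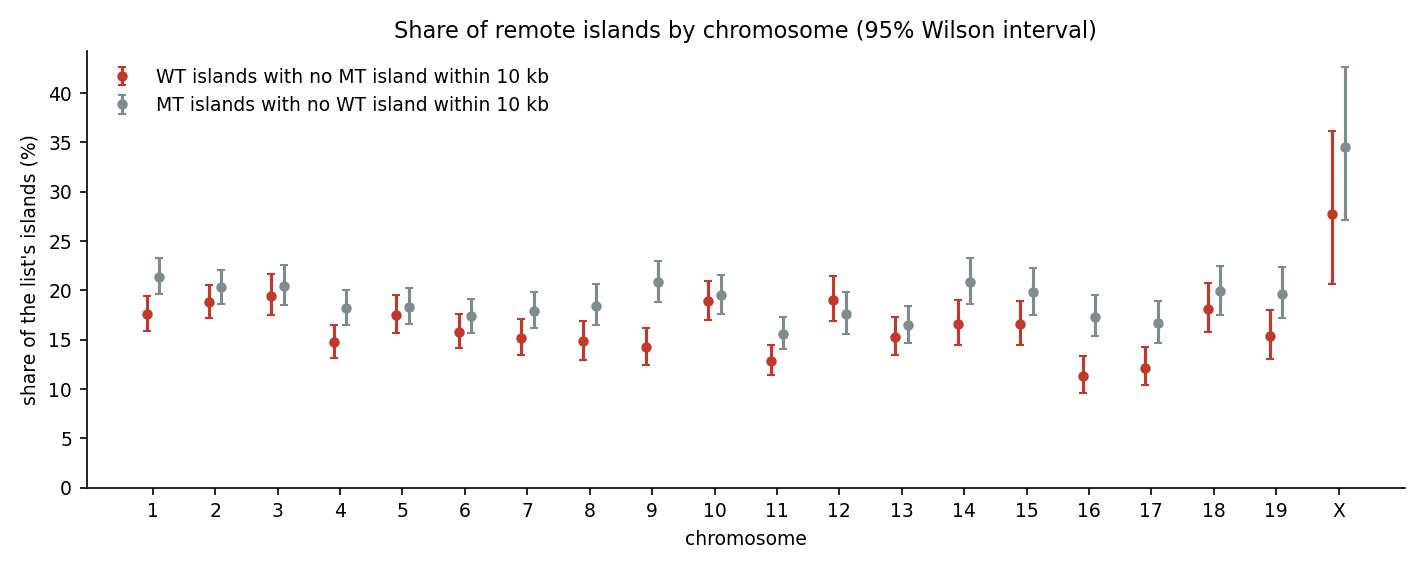
Share of remote islands (%) in the WT list and, by the same rule the other way, in the MT list for each chromosome, with 95% Wilson intervals and an axis from 0. The WT share runs from 11.4% on chromosome 16 to 19.5% on chromosome 3 among autosomes and is 27.8% on chromosome X, where the intervals are widest.

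The remote MT islands had 28.3 ChIP reads per kb and 1.97 ChIP reads per input read when pooled, with a median length of 2000 bp and medians of 55 ChIP and 27 input reads. They stood to the other MT islands, with medians of 2600 bp, 81 ChIP and 37 input reads, much as the remote WT islands stood to the other WT islands. Within 5 ChIP reads of the floor of their own list were 43.1% of them, a share that was not computed for the other MT islands. The median remote MT island had 7 ChIP reads above that floor, against 16 in the other MT islands. In both mice the remote islands were thus shorter than the rest of their list and, at the median, closer to its floor.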

How the data were processed

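H4K16ac ChIP-Seq islands from the liver of 1 WT and 1 MT mouse were analysed. The authors deposited, for each mouse, a list of islands with whole read counts of the ChIP and the input library. According to the submitters' processing notes, the tools were Bowtie 0.12.7 and SICER 1.03, and the build was mm8. The names of the lists give the removal of duplicates, windows of 200 bp, gaps of 400 bp and a false discovery rate of 0.001. The remaining columns hold the authors' p-values, folds and false discovery rates and were not used. The lists give no total reads per library.

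Distances, classes, runs and shares were computed with scipy 1.17.1, pandas 2.3.3 and numpy 2.4.6 under Python 3.11.15, plotted with matplotlib 3.10.9 and tested on simulated data. Positions count from 1. Intervals are 95% Wilson intervals for shares and exact Poisson intervals for counts, and molecules were not tagged, so that both cover counting error only. With 1 library per kind and genotype no test was run.

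The members and lists were chosen with earlier results of these data known. Islands were named by a rule: the 10 with the most ChIP reads, the 5 densest with at least 50 ChIP reads, the 5 longest, the 5 farthest from an MT island, the 5 with the most input reads and the 5 runs with the most islands. The block on chromosome 15, the group on chromosome 6 and the largest member of the run on chromosome 10 were named after their values were seen. Genes were not assigned. Alternatives were other distances, count and ratio minimums, autosomes alone, overlapping islands as the comparison, islands of 1000 to 2000 bp and another scaling.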

Additional observations from a re-analysis of the deposited data

How the results depend on the processing

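Of 78 alternatives, 37 moved a share by less than its counting interval, and 41 moved it further. No paired analysis was possible because each genotype has 1 library of each kind. With the limit at 5000, 20000 and 50000 bp, 22.0%, 10.5% and 4.72% of WT islands were remote. Of MT islands, 26.3%, 11.6% and 4.62% were. At 50000 bp the WT and MT shares lay within each other's counting intervals. With at least 50 ChIP reads in both lists the shares were 15.3% in WT and 23.9% in MT. With at least 2 ChIP reads per input read they were 28.2% and 24.0%, where the order turned. Another remote island within 50 kb was found for 54.6%, 41.9% and 35.9% of remote islands at the 3 limits, for 34.0% within 20 kb and for 60.6% within 100 kb. For any other WT island these shares were 82.4%, 68.6% and 43.5%, and 52.6% and 89.6%.

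The share of remote islands above the median of the others was, in length, 26.7% beyond 50000 bp, 24.6% with at least 10 input reads and 23.2% against overlapping islands alone. In ChIP reads it was 13.7% against overlapping islands and 26.4% within 1000 to 2000 bp, and in ChIP reads per kb 24.5% and 27.5%. In input reads it was 26.0%, 26.0% and 25.4% at the 3 limits, 22.7% against overlapping islands and 36.7% within 1000 to 2000 bp. In ChIP reads per input read it was 35.9%, 40% and 43.8% at the 3 limits and 34.7% against overlapping islands. Chromosome X held 1.53% of the remote islands beyond 50000 bp. At or above the lowest MT count were 99.3% beyond 50000 bp, 99.8% with at least 10 input reads, 99.7% with scaled counts and 99.7% at input counts held by at least 20 MT islands, the last chosen after seeing the data. The cause of these shifts was not tested.

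With 1 mouse per genotype, the differences between mice and between genotypes cannot be told apart. A median remote island has 48 ChIP reads, and single islands are known no better than their counting intervals.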

Other observations

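Remote islands with both a high ChIP count and a high ratio of ChIP to input reads were rare. At least 100 ChIP reads together with at least 2.5 ChIP reads per input read, a pair of limits chosen after the values were seen, were reached by 16 of 4239 remote islands (0.377%, 0.232 to 0.612%), by 36 near islands (0.702%) and by 2546 overlapping islands (15.1%). Among remote MT islands, 39 of 5347 (0.729%) reached both limits, and the share among the other MT islands was not computed. Of the 16 remote WT islands, 6 were on chromosome 10, which held 281 (6.63%) of the remote islands and 162 (6.27%) of the other WT islands that reached both limits. Chromosome 13 had 2, and chromosomes 3, 4, 5, 7, 8, 12, 14 and 15 had 1 each. Of the 39 remote MT islands, 3 were on chromosome 10.

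The 6 islands on chromosome 10 were spread along it. They were chr10:7779401-7783800 with 156 ChIP and 43 input reads, chr10:18060201-18063000 with 112 and 36, chr10:59314601-59317600 with 119 and 47, chr10:95658201-95662800 with 152 and 58, chr10:118168001-118170200 with 114 and 39, and chr10:121784001-121791800 with 223 and 75. The nearest MT islands were 87.2, 31.0, 18.2, 10.2, 11.2 and 63.6 kb away in that order. The first of them belongs to the run of 14 islands, and 2 of the 5 densest remote islands were also on chromosome 10. Sirt1 itself lies on chromosome 10 in RefSeq. Where it lies relative to these islands on mm8, and whether the targeted chromosome has a part in these counts, was not tested.

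Along the chromosomes, divided into 5 equal stretches between the outermost islands, the remote islands were spread as 20.5%, 17.4%, 18.2%, 20.6% and 23.3%, and the other WT islands as 17.2%, 18.0%, 19.7%, 21.6% and 23.5%, counted from the lowest coordinate. The difference was largest in the first stretch, which holds the end nearest the centromere of mouse chromosomes.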
